A study of Rattus norvegicus with 8 samples.

Results

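The genes described here encode proteins of the lysosome: its membrane proteins, its acid hydrolases and their helpers, the proton pump that acidifies it, and the transcription factors that act on its genes. They were taken by name, from a list of 36 genes to which every gene whose name begins with Atp6v0, Atp6v1 or Atp6ap was added, which brought in 25 more; cathepsins were left out. All 61 names were found among the 37209 gene rows of the count table. The rule used names and no measured value, but the list was drawn up with earlier results of these data known.

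The samples came from Sprague Dawley rats 1 week after a vein had been set into the divided left common carotid artery with a cuff at each end. The 4 graft veins were compared with 4 control jugular veins, which were the animals' own veins of the other side. Both groups thus came from operated rats, and the control veins were not handled as grafts. No genetic alteration, drug or age is given for either group. RNA of whole vein pieces was sequenced, and the values are read counts per gene. In such material, fewer cells of a type and less RNA per cell cannot be told apart. The labels speak of pairs of veins, but nothing in them ties a numbered graft to a numbered control.

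Lysosomes are the acidic compartments in which cells break down material taken up from outside and worn parts of their own. The V-type proton pump drives protons into them with a membrane-embedded V0 sector and a cytosolic V1 sector that splits ATP, and the hydrolases work at the low pH it makes. Macrophages, which take up lipid and debris in an injured vessel wall, are known for a large lysosomal compartment. TFEB, TFE3 and MITF are related transcription factors that bind the E-box CACGTG in many promoters of lysosomal genes.

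The libraries held between 5981520 counts (control 4) and 16061189 counts (graft 1), so that 3 counts corresponded to between 0.182 and 0.56 CPM. Levels below are CPM, read counts scaled to a common library size with the TMM factors of edgeR, and they are compared between libraries, not between genes, since no gene lengths were at hand. Controls 3 and 4 stood apart from the other controls in 2 marker lists: the summed level of 8 adipocyte genes was 1810 and 2230 CPM there against 415 and 676 CPM in controls 1 and 2, and that of 10 neuron and glia genes was 657 and 599 CPM against 41.7 and 53.8 CPM. Nearly all of the latter was Mbp, a myelin gene with 7731 and 3172 counts in controls 3 and 4. The extraction text of the labels names prefrontal cortex, whereas the tissue labels name veins; of the neuron and glia genes besides Mbp, Neurod6 had 0 counts in every library, Slc17a7, Rbfox3, Snap25, Gad1 and Mog had at most 10 in any, and Aqp4 reached 88 in control 3, Gfap 65 in graft 3 and Syt1 43 in graft 1, while the smooth muscle gene Myh11 averaged 8090 CPM in the controls. The calls that changed when controls 3 and 4 were left out are given together after the members.

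More of the lysosomal genes rose than fell in the grafts, and most of those that rose were hydrolases and their helpers. Of the 61 genes, 55 had enough counts to be tested. Among them 31 rose, 2 fell and 22 missed the threshold (edgeR quasi-likelihood test, Benjamini-Hochberg adjusted p under 0.05 over 15464 genes). Over all genes tested, 21.0% rose and 21.3% fell. The median log2 fold change was 0.58 over the tested lysosomal genes and 0.01 over all genes tested. Of the 31 that rose, 18 rose by at least 1 on the log2 scale, but the share of all genes that rose by as much was not counted. All 4 grafts lay above all 4 controls in 26 genes, against 20.8% of all genes tested, and below them in 0 genes, against 19.8%. A gene such as Atp6v0d2, which was kept for testing by its graft counts alone, had to differ, so these counts describe the tested genes and not the whole list.

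**Figure D1:**
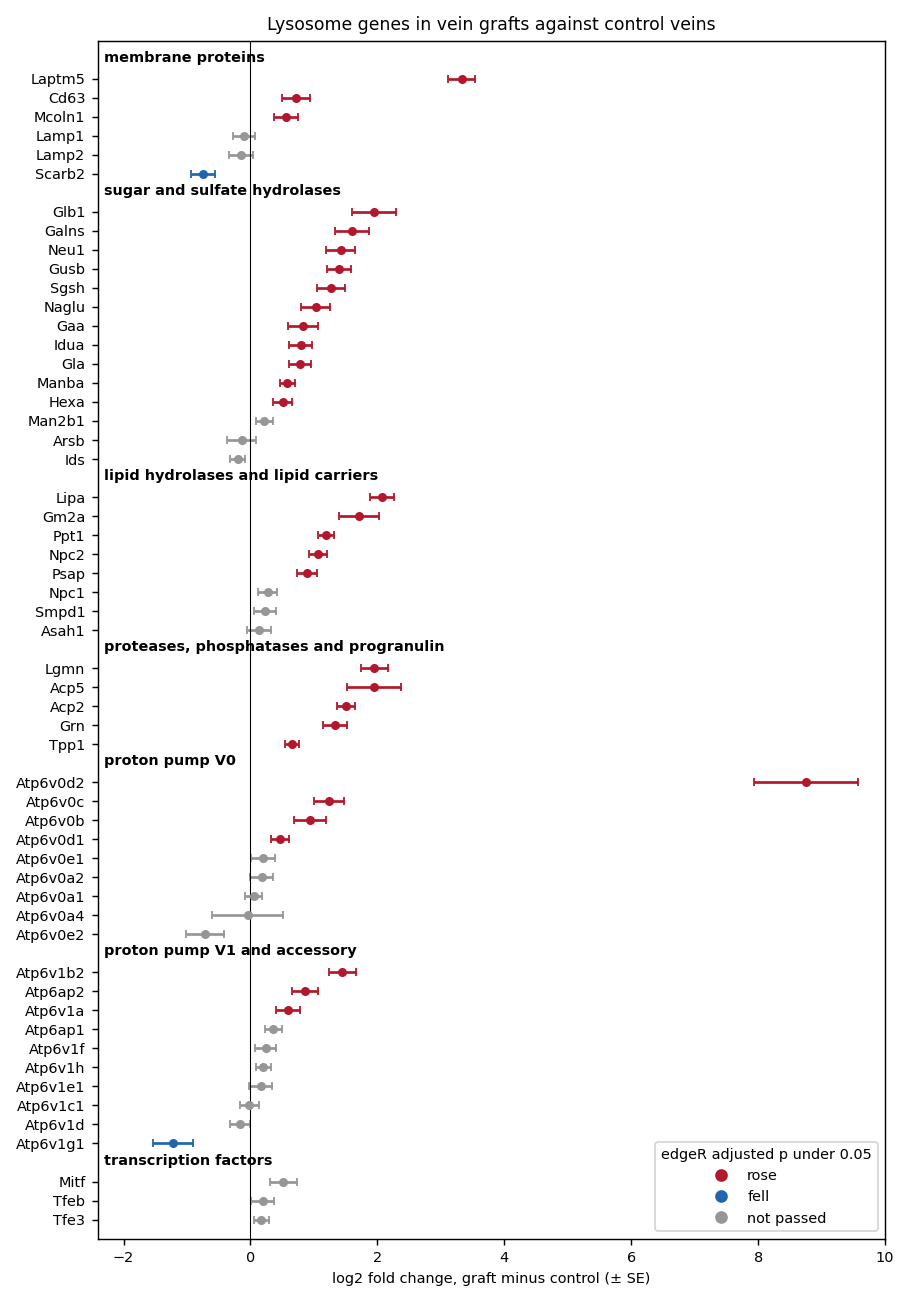
Log2 fold change of each of the 55 tested lysosomal genes, graft minus control (horizontal axis), with its standard error, grouped by role; red genes rose, blue genes fell and grey genes did not pass. Of the hydrolases and their helpers, all but Ids and Arsb lie to the right of 0, whereas pump subunits and membrane proteins lie on both sides; Atp6v0d2 (8.75) had 1 count in all controls, so its value depends on the prior count.

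Together the 61 genes took 0.479% ± 0.00926 (SD, n = 4) of the counts in the controls and 0.855% ± 0.104 (SD, n = 4) in the grafts. The 4 controls lay between 0.468% and 0.487%, and the grafts at 0.726%, 0.901%, 0.826% and 0.967%. The groups did not overlap, and the grafts spread more widely than the controls. These are shares of all counts in a library, without the TMM factors. With those factors the summed level was 4910 to 5390 CPM in the controls and 6960 to 9050 CPM in the grafts. Of the 27 hydrolases, lipid carriers, proteases, phosphatases and progranulin, 21 rose and 6 did not pass, and their median log2 fold change was 1.03. The 19 tested pump genes had a median of 0.20; among them 7 rose, 1 fell and 11 did not pass. The difference between the roles was not tested.

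E-boxes in the promoters are shown first, because they are the feature by which the lysosomal genes are often grouped. RefSeq promoter sequences (build GRCr8, 250 bases before to 50 bases after the start) were matched for 51 of the 61 genes. The E-box CACGTG, which reads the same on both strands, was found in 9 of these promoters (17.6%), against 6.42% of all 33469 promoters of that length. The form TCACGTGA, which contains it, was found in 4 (7.84%), against 0.777% of all promoters. The CLEAR consensus GTCACGTGAC, which contains both, was found in 0 of the 51 and in 0.233% of all. The motifs were counted as a description with the fold changes known. A match is not a binding site, and a promoter without one says nothing of the factor. Windows of 30 bases around the E-box, in capitals, are given for the 7 holders that rose and for the 2 that did not pass. All are written 5′ to 3′ on the gene's own strand.
Glb1, chr8:122963606-122963635, plus strand: cggctccggagtCACGTGgcctgcagaggc
Sgsh, chr10:105112029-105112058, minus strand: gagcctgccgtgCACGTGaccctgtggagg
Gaa, chr10:105028276-105028305, plus strand: ccgcccacaaacCACGTGacccacgctgcc
Idua, chr14:1190914-1190943, minus strand: ctggcgaatggtCACGTGgggcgttacccg
Cd63, chr7:1921942-1921971, plus strand: ccgggcagcggcCACGTGgcctgtccaggc
Mcoln1, chr12:6358250-6358279, plus strand: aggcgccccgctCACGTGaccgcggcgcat
Atp6v0d1, chr19:50357283-50357312, minus strand: ccccattgtggtCACGTGagatgcagtgcg
Atp6v0e1, chr10:17007115-17007144, minus strand: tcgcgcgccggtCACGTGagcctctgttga
Lamp1, chr16:83075111-83075140, minus strand: agaccctcggctCACGTGaccggcgggcgc
Lamp1, chr16:83075084-83075113, minus strand: cgcggcactgttCACGTGacaggcgctgcc

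The Lamp1 promoter held 5 E-boxes and that of Mcoln1 held 2, the most among the 9. The E-box began between 3 (Idua) and 190 (Cd63) bases before the annotated start in 6 of the genes that rose, and past the start in the windows shown for Mcoln1 and Atp6v0e1. The T before and the A after the core are present in the windows of Mcoln1, Atp6v0d1, Atp6v0e1 and both of Lamp1. For Lamp1 and Mcoln1 only the E-boxes with both of these bases are shown, and their other E-boxes do not have both. Of the 9 holders, 7 rose and 2, Lamp1 and Atp6v0e1, did not pass; their median log2 fold change was 0.72. Of the 36 tested genes whose promoter held no E-box, 19 rose, with a median of 0.58. The gene with the most E-boxes was thus among those that did not pass. Of the holders, the rises of Cd63, Mcoln1, Gaa and Atp6v0d1 were lost in some fits without 1 library, and also without controls 3 and 4. Among genes without an E-box, those of Acp5, Naglu, Atp6ap2, Atp6v0b and Atp6v1a were lost without controls 3 and 4. Whether holders rose more often was not tested.

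None of the 3 transcription factors themselves passed the test. Mitf, the melanocyte and osteoclast member of the family, had levels of 15.1, 27, 25.3 and 18.5 CPM over controls 1, 2, 3 and 4, and of 28.8, 31.8, 25.5 and 37 CPM over the grafts in the same order. The grafts were higher on average, but graft 3 lay below control 2 (log2 fold change 0.52 ± 0.21 SE, edgeR adjusted p = 0.0706). Tfe3 stood at 49.7, 53.6, 44.3 and 57.9 CPM in the controls and at 57.1, 63.5, 56.1 and 54.8 CPM in the grafts (0.17 ± 0.12, edgeR adjusted p = 0.254). Tfeb, the factor best known for acting on lysosomal genes, stood at 29.2, 16.9, 21.2 and 19.8 CPM in the controls and at 23.5, 23.8, 27.8 and 24.9 CPM in the grafts (0.19 ± 0.18, edgeR adjusted p = 0.407). In both genes the groups overlapped. With control 1 left out Tfeb passed (adjusted p = 0.0488), and with control 2 left out Mitf did (0.0454). With library totals as the only scaling Mitf (0.74) and Tfe3 (0.40) rose, and with upper-quartile factors Mitf did (0.57, edgeR adjusted p = 0.0472). Their relative Tfec, which is not on the list, rose from 3.92 ± 2.12 to 20.9 ± 5.45 CPM (SD, n = 4 each; log2 fold change 2.39 ± 0.38, edgeR adjusted p = 0.000932). The activity of these factors is set largely by where in the cell they are held, which RNA levels do not show.

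Among the 6 membrane proteins, 3 rose, 1 fell and 2 did not pass. Laptm5, a lysosomal membrane protein of blood-derived cells, was at 19.1, 23.8, 25 and 16.4 CPM in the controls and at 148, 238, 227 and 243 CPM in the grafts. Every graft was far above every control, and graft 1 was the lowest graft. The log2 fold change was 3.33 ± 0.21 (SE, edgeR adjusted p = 2e-05), with which Laptm5 had the smallest p of all the lysosomal genes tested. Cd63, a tetraspanin of late endosomes and exosomes, was at 148, 131, 112 and 108 CPM in the controls and at 215, 237, 121 and 249 CPM in the grafts. Graft 3 lay among the controls, and the other grafts lay above them (0.72 ± 0.22, edgeR adjusted p = 0.0252). Mcoln1, the lysosomal calcium channel TRPML1, was at 24.6, 15.7, 15.1 and 16.4 CPM in the controls and at 27.5, 30.1, 22 and 26.7 CPM in the grafts. Control 1 lay above graft 3, while the other controls lay below every graft (0.56 ± 0.19, edgeR adjusted p = 0.038). Both calls were weak: each was lost in 6 of the 8 fits without 1 library, those without control 2, 3 or 4 or graft 1, 2 or 4, where adjusted p reached 0.0687 for Cd63 and 0.099 for Mcoln1.

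The 2 main glycoproteins of the lysosomal membrane did not pass the test. Lamp1 was at 409, 450, 381 and 530 CPM in the controls and at 430, 415, 315 and 487 CPM in the grafts. Lamp2, which also serves autophagy, was at 333, 478, 446 and 484 CPM in the controls and at 396, 448, 274 and 450 CPM in the grafts. The groups overlapped widely in both, with log2 fold changes of -0.10 ± 0.17 (edgeR adjusted p = 0.643) and -0.15 ± 0.19 (0.556). The sign of both turned when library totals were the only scaling (0.12 and 0.07), where neither passed. Scarb2, the LIMP-2 protein that carries glucocerebrosidase to the lysosome, fell. It was at 166, 267, 256 and 260 CPM in the controls and at 129, 147, 112 and 178 CPM in the grafts. Control 1 lay below graft 4, and the other controls lay well above all grafts. The log2 fold change was -0.75 ± 0.19 (edgeR adjusted p = 0.0115), and without controls 3 and 4 it was -0.61 (adjusted p = 0.0998).

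**Figure D2:**
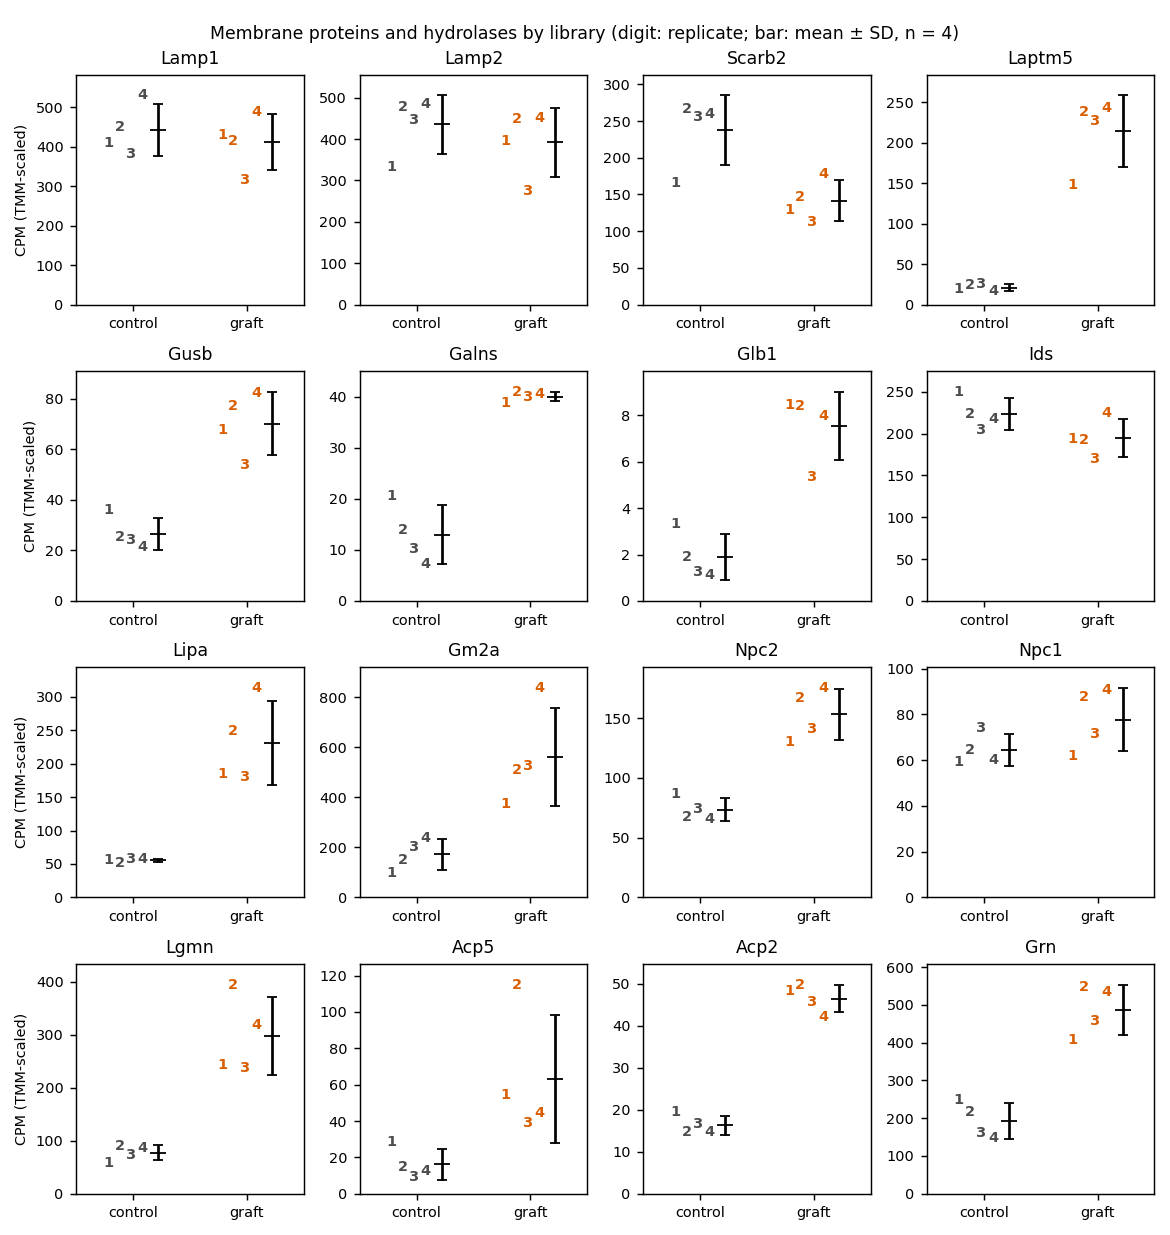
TMM-scaled CPM (vertical axes, from 0) of 16 membrane, hydrolase and helper genes in the 4 controls (grey digits, the replicate) and 4 grafts (orange digits), with mean ± SD. Laptm5, Lipa, Lgmn and Acp2 are higher in every graft than in any control, Lamp1, Lamp2, Ids and Npc1 overlap, and control 1 lies below graft 4 in Scarb2.

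Of the 14 hydrolases that act on sugar chains and their sulfates, 11 rose and 3 did not pass. Their median log2 fold change was 0.81. In 9 of them all grafts lay above all controls. Gusb, the beta-glucuronidase that trims glycosaminoglycans, was at 35.8, 25.2, 24 and 21.5 CPM in the controls and at 67.7, 77, 53.6 and 82.2 CPM in the grafts. No graft was as low as any control (log2 fold change 1.39 ± 0.19, edgeR adjusted p = 0.00047). Neu1, the sialidase, was at 16.1, 11.6, 13.7 and 6.72 CPM in the controls and at 30.3, 37, 30.7 and 32 CPM in the grafts (1.42 ± 0.23, edgeR adjusted p = 0.0012). Galns, a sulfatase of keratan and chondroitin sulfate, was at 20.6, 14, 10.2 and 7.28 CPM in the controls and at 38.8, 40.9, 40 and 40.6 CPM in the grafts (1.60 ± 0.27, edgeR adjusted p = 0.00134). In both genes control 4 was the lowest and control 1 the highest control, and the 4 grafts lay close together.

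Glb1, the beta-galactosidase often used as a senescence stain, was at 3.3, 1.89, 1.25 and 1.12 CPM in the controls and at 8.43, 8.41, 5.36 and 7.96 CPM in the grafts. The groups did not overlap, and graft 3 stood below the other grafts (1.95 ± 0.35, edgeR adjusted p = 0.00204). The RefSeq annotation places Tmppe over Glb1, and whether strand was used in counting is not given, so reads of the 2 genes cannot be told apart. In all, 24 of the 61 genes have an overlapping gene in that annotation, for 13 of them a protein-coding gene; Cd63 (Rdh5), Hexa (Tmem202), Npc1 (Rmc1), Psap (Cdh23) and Atp6v1h (Rgs20) are among these. The same holds for Sgsh, the heparan N-sulfatase (1.27, overlapped by Card14 and Slc26a11), and for Idua, the iduronidase (0.79, overlapped by Slc26a1 and Dgkq). The other sugar hydrolases that rose were Naglu (1.03), Gaa, the glycogen-degrading glucosidase (0.83), Gla (0.78), Manba (0.58) and Hexa (0.51), each as a log2 fold change. Of these, Hexa passed in 5 of the 8 fits without 1 library (lost without control 3, control 4 or graft 4, adjusted p up to 0.0558) and Gaa in 6 (lost without control 3 or graft 1, up to 0.0601). Man2b1 (0.22), Ids (-0.20) and Arsb (-0.14) did not pass. Ids and Arsb act on dermatan and heparan or chondroitin sulfates, as several of those that rose do.

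Of the 8 genes for lipid hydrolases and lipid carriers, 5 rose and 3 did not pass, and in the 5 that rose no graft overlapped a control. Lipa, the acid lipase that splits cholesteryl esters and triglycerides, was at 55.2, 51.4, 56.9 and 57.3 CPM in the controls and at 184, 249, 180 and 313 CPM in the grafts. The controls were nearly equal, and every graft was far above them (log2 fold change 2.07 ± 0.19, edgeR adjusted p = 4.77e-05). Ppt1, a thioesterase that removes palmitate from proteins, was at 56.3, 69.4, 57.9 and 67 CPM in the controls and at 129, 159, 142 and 140 CPM in the grafts (1.19 ± 0.12, edgeR adjusted p = 7.8e-05). Npc2, which hands free cholesterol to Npc1, was at 86.8, 67.5, 74 and 65.7 CPM in the controls and at 130, 167, 141 and 175 CPM in the grafts (1.06 ± 0.14, edgeR adjusted p = 0.000351). The lowest graft was above the highest control in both.

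Gm2a, the activator that lifts ganglioside for hexosaminidase, was at 95.8, 151, 200 and 239 CPM in the controls and at 374, 509, 524 and 835 CPM in the grafts (1.71 ± 0.32, edgeR adjusted p = 0.0022). Its control 1 was the lowest control and graft 4 the highest graft. Psap, the precursor of the saposins, rose from 766 ± 116 to 1420 ± 176 CPM (SD, n = 4 each; 0.89 ± 0.16, edgeR adjusted p = 0.00223). The membrane cholesterol exporter Npc1 (0.27), the sphingomyelinase Smpd1 (0.23, but edgeR adjusted p = 0.0474 without control 1) and the ceramidase Asah1 (0.14) did not pass. The soluble carrier Npc2 therefore passed the test while its membrane partner Npc1 did not, and the difference between them was not tested.

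All 5 proteases, phosphatases and progranulin rose, and in each of them the grafts lay above the controls. Acp2, a lysosomal acid phosphatase, was at 19.5, 14.8, 16.6 and 14.6 CPM in the controls and at 48.4, 49.7, 45.8 and 42.2 CPM in the grafts (log2 fold change 1.5 ± 0.14, edgeR adjusted p = 4.99e-05). Nr1h3 and Ddb2 overlap it in the annotation. Lgmn, the asparaginyl endopeptidase that also activates cathepsins, was at 58.8, 90, 73 and 86.6 CPM in the controls and at 243, 395, 237 and 318 CPM in the grafts (1.95 ± 0.21, edgeR adjusted p = 0.000105). Grn, progranulin, a secreted and lysosomal protein that binds prosaposin, was at 248, 216, 162 and 147 CPM in the controls and at 406, 548, 457 and 535 CPM in the grafts (1.33 ± 0.19, edgeR adjusted p = 0.000547). Each of the 3 stood higher in every graft than in any control. Tpp1, a tripeptidyl peptidase, rose by 0.66 ± 0.11 (edgeR adjusted p = 0.00126).

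Acp5, the tartrate-resistant phosphatase known from osteoclasts and from some macrophages, was at 28.5, 14.8, 9.04 and 12.3 CPM in the controls and at 54.1, 115, 38.8 and 44.6 CPM in the grafts. Graft 2 stood well above the other grafts, and control 1 above the other controls. The log2 fold change was 1.95 ± 0.43 (edgeR adjusted p = 0.00568), and without controls 3 and 4 it was 1.54 (adjusted p = 0.0538).

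In the proton pump, the V0 sector held the gene with the largest fold change among the 55 tested. Of its 9 genes, 4 rose and 5 did not pass. Atp6v0d2, the d subunit known from osteoclasts, dendritic cells and macrophages, had 1, 0, 0 and 0 counts in the controls, in their order, against 162, 287, 69 and 347 counts in the grafts. It was thus all but absent from the controls at this depth and present in every graft, with the fewest counts in graft 3. The ratio of the summed counts, corrected for library size, was 608, with a 95% interval of 109 to 24100 that covers counting error only. The fitted log2 fold change of 8.75 ± 0.82 (edgeR adjusted p = 5.89e-05) depends on the prior count. Its common partner Atp6v0d1 was at 122, 92.6, 79.9 and 89 CPM in the controls and at 131, 130, 135 and 134 CPM in the grafts (0.46 ± 0.14, edgeR adjusted p = 0.0221). The 4 grafts lay close together, just above control 1. Without control 2, 3 or 4 this call was lost (adjusted p up to 0.0605).

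Atp6v0c, the proteolipid of the proton-carrying ring, was at 100, 59.6, 42.3 and 66.1 CPM in the controls and at 135, 184, 142 and 172 CPM in the grafts (log2 fold change 1.24 ± 0.24, edgeR adjusted p = 0.0029). Atp6v0b, the ring's c'' proteolipid, was at 22.6, 10.4, 13 and 10.8 CPM in the controls and at 25.1, 25.8, 28.2 and 30.9 CPM in the grafts (0.94 ± 0.25, edgeR adjusted p = 0.0128). Control 1 was the highest control in both genes, and every graft lay above it. The table of RefSeq genes lists pseudogenes of Atp6v0c, so its counts are uncertain. Atp6v0e1 was at 54.6, 34, 28.9 and 44.2 CPM in the controls and at 42.9, 48.4, 45 and 49.3 CPM in the grafts. Its isoform Atp6v0e2 was at 19.5, 11.4, 7.45 and 8.03 CPM and at 6.61, 6.31, 7.76 and 7.77 CPM. Neither passed (log2 fold changes 0.20 ± 0.19, edgeR adjusted p = 0.428, and -0.71 ± 0.30, 0.0859), and in each the groups overlapped. Atp6v0e2 fell without control 3 (adjusted p = 0.0445) and without controls 3 and 4 (-1.12, adjusted p = 0.014), and its log2 fold change ranged from -0.88 to -0.34 over the 8 fits without 1 library.

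The a subunits decide where in the cell the pump sits. Atp6v0a1 stood at 158, 133, 122 and 114 CPM in the controls and at 119, 148, 135 and 143 CPM in the grafts. Atp6v0a2 stood at 41.8, 29.7, 22.8 and 27.3 CPM in the controls and at 32, 33.4, 34.4 and 38.1 CPM in the grafts. Atp6v0a4, known from proton-secreting epithelia, stood at 1.5, 0.199, 2.51 and 2.24 CPM in the controls and at 1.82, 1.5, 1.12 and 1.73 CPM in the grafts. None of the 3 passed (log2 fold changes 0.05, 0.18 and -0.04), and their groups overlapped. Without control 1, Atp6v0a2 rose (edgeR adjusted p = 0.0435). The a3 subunit, Tcirg1, falls outside the name rule. It was at 38.7, 35.4, 27.6 and 25.8 CPM in the controls and at 122, 180, 181 and 141 CPM in the grafts, a log2 fold change of 2.29 ± 0.19 (edgeR adjusted p = 3.48e-05). Every graft lay far above every control.

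Isoforms of 1 subunit can be set against each other as a ratio of counts within a library, which needs no scaling. Atp6v0d2 had 0.0153 ± 0.0306 counts for every 100 of Atp6v0d1 in the controls and 11.2 ± 6.4 in the grafts (SD, n = 4 each, here and in the following ratios). Tcirg1 had 24.1 ± 1.91 counts for every 100 of Atp6v0a1 in the controls and 114 ± 16.5 in the grafts. Atp6v0e2 had 28.3 ± 7.96 for every 100 of Atp6v0e1 in the controls and 15.4 ± 1.74 in the grafts. The 3 ratios did not overlap between the groups, whereas those of Atp6v0a2 and Atp6v0a4 to Atp6v0a1 did. The ratios of Atp6v1b1 to Atp6v1b2, Atp6v1c2 to Atp6v1c1, Atp6v1e2 to Atp6v1e1 and Atp6v1g2 to Atp6v1g1 overlapped too, with few counts of the first gene in each. These ratios are of counts, not of molecules, and serve to compare libraries.

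**Figure D3:**
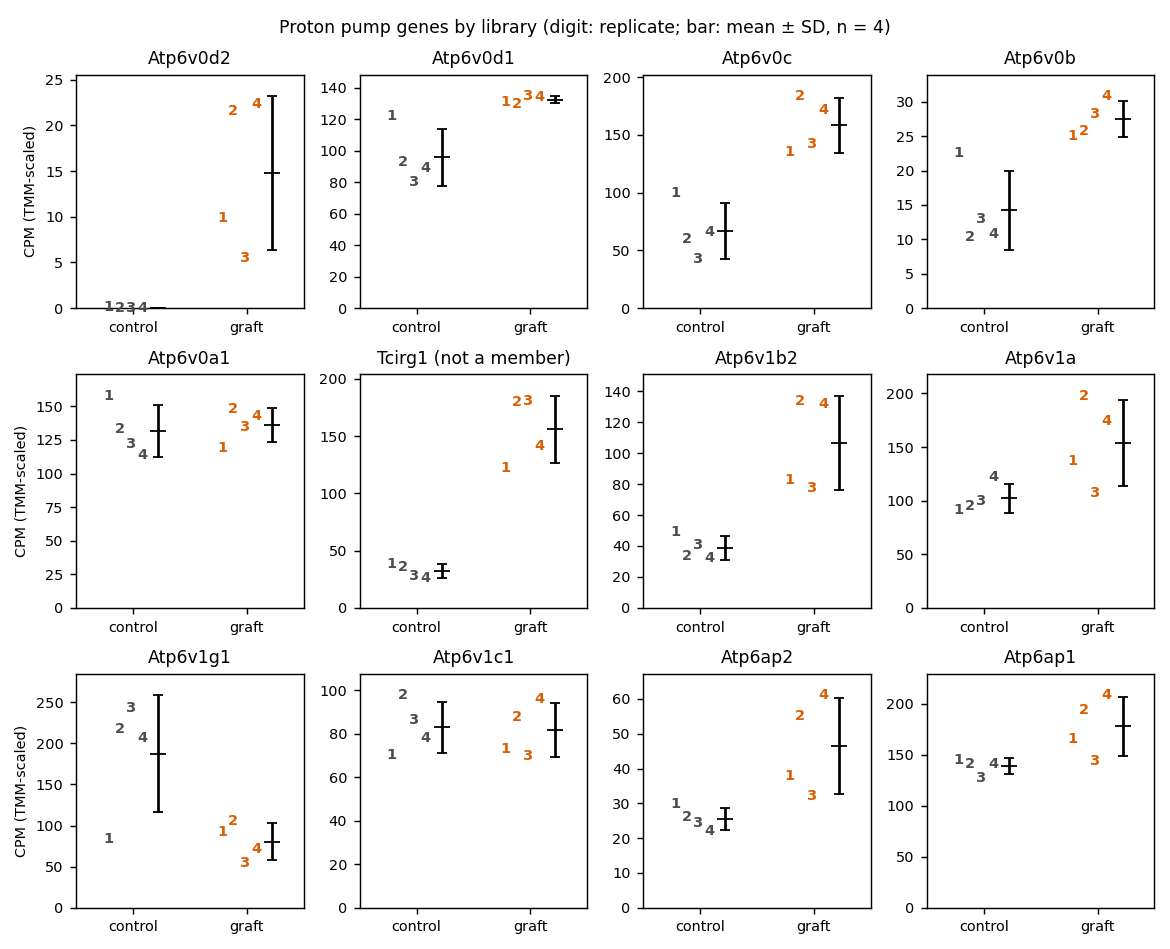
TMM-scaled CPM (vertical axes, from 0) of 11 proton pump genes and of Tcirg1, which is outside the name rule, in the 4 controls (grey digits, the replicate) and 4 grafts (orange digits), with mean ± SD. Atp6v0d2 and Tcirg1 separate the groups fully, Atp6v0a1 does not, and Atp6v1g1 is low in control 1 (84.1 CPM) as in the grafts.

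Of the 10 tested V1 and accessory genes, 3 rose, 1 fell and 6 did not pass. Atp6v1b2, the common B subunit of the ATP-splitting head, was at 49.1, 33.4, 40.9 and 32.1 CPM in the controls and at 82.6, 134, 77.7 and 132 CPM in the grafts (log2 fold change 1.45 ± 0.22, edgeR adjusted p = 0.000833). Atp6ap2, the accessory protein also known as the prorenin receptor, was at 29.7, 26.2, 24.4 and 22.2 CPM in the controls and at 37.9, 55.1, 32.1 and 61 CPM in the grafts (0.86 ± 0.21, edgeR adjusted p = 0.00991). In both, grafts 2 and 4 were the highest and grafts 1 and 3 lower, and all lay above the controls. Atp6v1a, the catalytic A subunit, was at 91, 95.2, 100 and 122 CPM in the controls and at 137, 198, 107 and 174 CPM in the grafts (0.59 ± 0.19, edgeR adjusted p = 0.0321). Graft 3 lay below control 4. This call was lost without control 1, 2 or 3 or graft 2 or 4 (adjusted p up to 0.0885). Atp6v1b2 had 39 ± 11.6 counts for every 100 of Atp6v1a in the controls and 69.3 ± 6.8 in the grafts, and the groups did not overlap. A pseudogene is listed for Atp6v1a, and likewise for Atp6v1e1, so the counts of both genes and this ratio are uncertain.

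Atp6v1g1, a subunit of the stalk between the sectors, fell. It was at 84.1, 217, 243 and 206 CPM in the controls and at 91.6, 105, 54.4 and 71.2 CPM in the grafts. Control 1 lay among the grafts, and the other 3 controls stood far above them. The log2 fold change was -1.22 ± 0.32 (edgeR adjusted p = 0.0129), and without controls 3 and 4 it was -0.90 (adjusted p = 0.115). A near copy, Atp6v1g1l1, and a pseudogene are listed for it, so its counts are uncertain. Atp6ap1, the other accessory protein, missed the threshold (0.36 ± 0.13, edgeR adjusted p = 0.0516). Atp6ap1 passed without graft 3 (adjusted p = 0.0152), with upper-quartile factors (0.0268), with library totals as the only scaling (0.00369) and with a stricter filter (0.0399). The log2 fold changes of Atp6v1f (0.24), Atp6v1h (0.20), Atp6v1e1 (0.16), Atp6v1c1 (-0.02) and Atp6v1d (-0.16) were small, and none of the 5 passed. Subunits of the same complex thus stood at different sides of 0.

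The 6 genes not tested were pump genes with few counts. Atp6v1g3, an isoform of kidney, had 0 counts in all 8 libraries. Atp6v1b1, the B subunit of proton-secreting cells, had 2 counts over the controls and 13 over the grafts, a ratio of 4.57 with a 95% counting interval of 1.03 to 41.7. Atp6ap1l had 2 and 4 counts (1.41, 0.202 to 15.5). Over the controls, Atp6v1c2 had 6, 5, 3 and 4 counts, against 21, 9, 16 and 16 over the grafts. For Atp6v1e2 the counts were 18, 8, 5 and 1 against 18, 13, 7 and 8, and for Atp6v1g2, an isoform of neurons, 11, 6, 3 and 3 against 6, 2, 11 and 6. In the main fit of all 8 libraries, no test was made for these 6. Without control 4, Atp6v1c2 came into the test and passed it (edgeR adjusted p under 0.05).

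Some libraries stood high or low in many of the genes at once. Control 1 was the highest control in 31 of the 55 tested genes, and in 23 of the 31 that rose. Graft 4 was the highest graft in 29 genes and graft 3 the lowest in 29. Relative to the mean of the controls, the median difference over the 55 genes on the log2 scale (offset 0.5 CPM) was 0.20, 0.02, -0.06 and -0.07 for the controls in their order. For grafts 1, 2, 3 and 4 it was 0.50, 0.71, 0.31 and 0.70. For the 5 proteases, phosphatases and progranulin this median was 1.54, 1.58, 1.36 and 1.5 in the grafts and at most 0.25 in a control. For the 9 V0 genes the median was 0.47 in control 1 and 0.33, 0.30, 0.21 and 0.36 in the grafts. The V0 genes' share of the counts did not overlap between the groups, with 0.0303% to 0.0488% in the controls and 0.0516% to 0.064% in the grafts. With the TMM factors, their summed level was 318 to 521 CPM in the controls and 503 to 600 CPM in the grafts. There the groups overlapped, with control 1 above graft 1. In the V0 sector the measure chosen thus decided whether control 1 lay above, among or below the grafts.

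Leaving out controls 3 and 4, the libraries with the adipocyte and Mbp signal, left 21 genes that rose and 1 that fell of 58 tested, where 15.4% of all genes tested rose. The gene that fell there was Atp6v0e2, and both genes that fell with all libraries, Scarb2 and Atp6v1g1, missed the threshold. The other 10 calls lost were rises. Without the 2 libraries the log2 fold change was 1.54 for Acp5 (edgeR adjusted p = 0.0538), 0.78 for Naglu (0.0539), 0.47 for Gaa (0.105) and 0.36 for Hexa (0.157). In the pump it was 0.73 for Atp6v1a (edgeR adjusted p = 0.0651), 0.74 for Atp6ap2 (0.0881), 0.74 for Atp6v0b (0.103) and 0.30 for Atp6v0d1 (0.165), and in the membrane 0.56 for Cd63 (0.185) and 0.40 for Mcoln1 (0.229). Of the genes tested with all libraries, 17 hydrolases, carriers, proteases, phosphatases and progranulin, 3 pump genes and 1 membrane protein rose there. At an unadjusted p under 0.05, 30 genes passed there, but the share of all genes passing at that threshold was not counted. The 21 genes that rose also rose in each of the 8 fits without 1 library, and they include Laptm5, Lipa, Lgmn, Acp2, Gusb, Atp6v0d2 and Atp6v1b2.

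The summed levels of macrophage and of osteoclast markers were also higher in the grafts. The summed level of 16 macrophage genes was between 353 and 609 CPM in the controls and between 1780 and 2790 CPM in the grafts. Of the 17 macrophage genes listed, Laptm5 among them, 16 rose; Cd163, a scavenger receptor, did not pass (-0.57 ± 0.44, edgeR adjusted p = 0.32). Graft 1 was the lowest graft in this sum and control 1 the lowest control. Among 8 osteoclast genes besides Acp5 and Atp6v0d2, the sum was between 147 and 219 CPM in the controls and between 256 and 567 CPM in the grafts, highest in graft 2, as for Acp5. Mmp9 made up 182 of the 567 CPM in graft 2. The osteoclast-associated receptor Oscar (5.07), Mmp9 (6.96), Ctsk (1.33) and Nfatc1 (0.79) rose, whereas Tnfrsf11a (-0.08) and Itgb3 (0.19) did not pass. Over the controls, in their order, Oscar had 1, 2, 3 and 0 counts and Mmp9 13, 3, 4 and 1. Both were kept for testing by their graft counts, as Atp6v0d2 was. Of the defining osteoclast genes, Dcstamp had 2 counts in all 8 libraries together, and Calcr at most 6 in any. The part of these cells in the changes of the lysosomal genes was not tested.

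Sums of other marker lists were lower in the grafts. Smooth muscle genes (8 of 8 fell) summed to between 13100 and 21700 CPM in the controls and between 1820 and 3470 CPM in the grafts. Adipocyte genes (7 of 7 tested fell) summed to between 415 and 2230 CPM in the controls and between 138 and 192 CPM in the grafts. Endothelial genes summed to between 3130 and 4880 CPM in the controls and between 1450 and 1780 CPM in the grafts, but Vwf made up much of this sum (2210 of 3890 CPM on average in the controls). Of the 8 endothelial genes, 4 fell and 4 did not pass, Cdh5 (-0.23), Tie1 (-0.06), Kdr (-0.08) and Egfl7 (0.01). Fibroblast genes summed to between 38600 and 76800 CPM in the controls and between 16100 and 38300 CPM in the grafts, nearly all of it Col1a1; 3 of 7 fell, Lum rose and 3 did not pass. Mast cell genes summed to between 54.6 and 215 CPM in the controls and between 36.2 and 65.4 CPM in the grafts, which overlapped, and 5 of 6 tested fell. Of the genes of proton-secreting epithelium besides Atp6v1b1 and Atp6v0a4, Foxi1 had 1 count in all and Slc26a4 at most 5 in any library, while Slc4a1, also a red cell gene, fell by 3.43 on the log2 scale. The part of this change in cell content in the levels of the lysosomal genes was not tested.

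Other parts of the lysosomal system were read from lists of genes outside the set. Of 27 further hydrolases, 12 rose and 1 fell, with a median log2 fold change of 0.29; galactocerebrosidase Galc rose (1.68), the hyaluronidase Hyal1 fell (-0.63), and Smpdl3a, the gene with the most counts, rose (1.29). Of 31 tested channels, transporters and membrane proteins, 18 rose and 2 fell, with a median of 0.66. The sugar phosphate transporter Slc37a2 rose by 3.69 and Entpd4 fell by 0.53, while Laptm4a, with the most counts, did not pass (-0.24). Mcoln3 (5.56) and Mcoln2 (4.37), the close relatives of Mcoln1, rose too. They were named after their values were seen and had under 1 CPM on average in the controls (0.154 and 0.336 CPM).

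Of 18 genes for mannose-phosphate tagging and sorting, 7 rose and 1 fell (median 0.46). Gnptab, which makes the tag, rose from 61.3 ± 6.09 to 116 ± 17.1 CPM (log2 fold change 0.92 ± 0.13, edgeR adjusted p = 0.000575), and the sorting receptor Sort1 fell from 515 ± 65.6 to 145 ± 22.6 CPM (-1.83 ± 0.16, 3.9e-05). Igf2r, the mannose-phosphate receptor with the most counts, missed the threshold (0.46, edgeR adjusted p = 0.0505). Of 22 genes of the Rag, Ragulator, folliculin and mTORC1 group, 5 rose and 4 fell (median 0.17). Here and in the lists that follow, the gene named for each direction is the one with the smallest p: Fnip2 (0.70) rose, and the GTPase Rragd (-2.53) fell. Of 29 autophagy genes, 3 rose and 8 fell (median 0.03), with Vmp1 (2.37) and Gabarapl1 (-1.15). Gabarap, with the most counts there, did not pass (0.07).

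Of 21 tethering and fusion genes, 6 rose and 4 fell (median 0.12), with Rab7b (1.88) and Rilp (-1.09), and Rab7a, with the most counts, fell by 0.53. Of 19 genes for lysosome-related granules and lysosome positioning, 8 rose and 2 fell (median 0.47), with Hps4 (1.71) and Rab27a (-0.94). Of 11 tested pump subunits and partners outside the name rule, Tcirg1 rose and Dmxl1 (-0.33) fell. Of 10 tested regulators related to the E-box factors, Tfec rose, and Foxo1 (-1.08) and the coactivator Ppargc1a (-1.67) fell. Ppargc1a had 76, 87, 402 and 145 counts over the controls, in their order, against 165, 46, 54 and 86 over the grafts. Controls 3 and 4 are the libraries with the adipocyte signal, and the call of Ppargc1a without them is not given here. With library totals as the only scaling, the numbers that rose and fell were 8 and 2 for autophagy, 9 and 3 for the Rag group, 9 and 1 for tethering, 4 and 0 for the pump partners, and 5 and 1 for the regulators. That scaling moved all genes toward rises: 67.81% of all called genes rose with it, against 49.71% with the TMM factors. The shares that follow are with the TMM factors. The share that rose among the autophagy genes, 10.3%, and among the Rag group, 22.7%, stood below or near the 21.0% of all genes tested, and that of the channels, transporters and membrane proteins, 58.1%, lay close to the 56.4% of the lysosomal genes themselves.

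**Figure D4:**
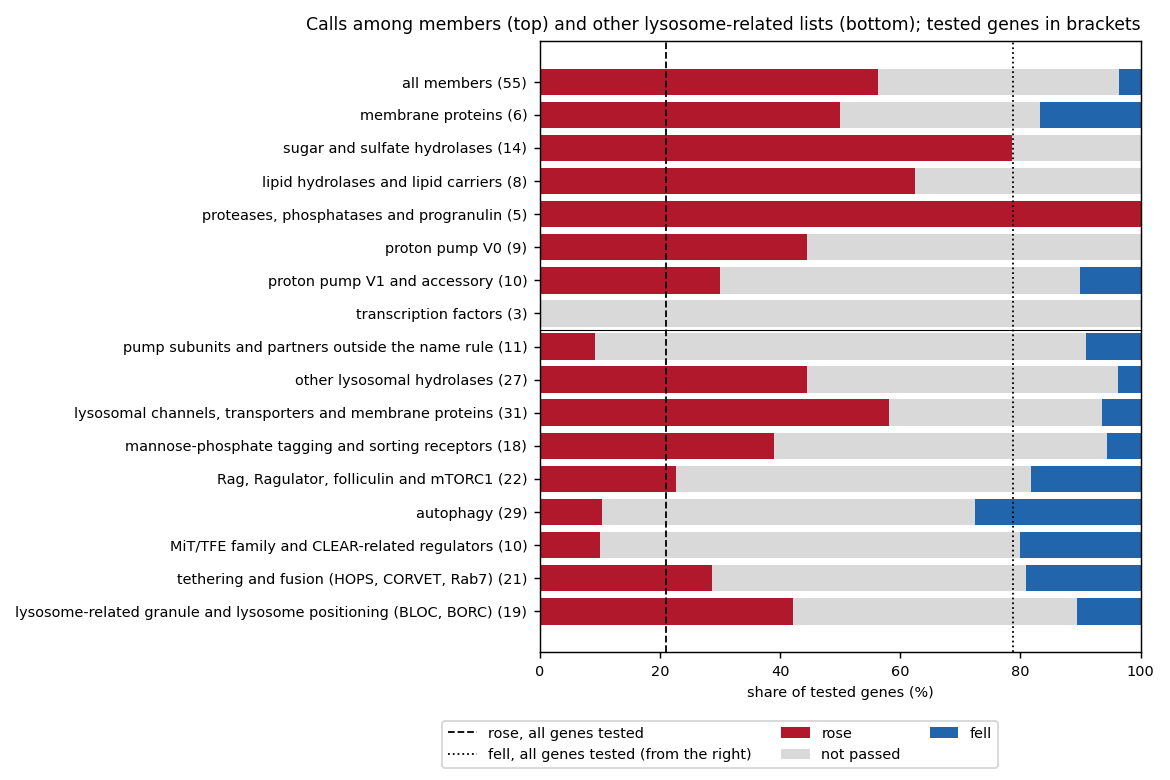
Share of tested genes, in percent, that rose (red, from the left), did not pass (grey) or fell (blue, from the right) in each role of the lysosomal set (top) and in the related lists (bottom), with the number tested in brackets; dashed and dotted lines mark the 21.0% that rose and the 21.3% that fell of all genes tested. Proteases, phosphatases and progranulin (100% rose) and sugar hydrolases (78.6%) stand highest, and the transcription factors (0%) and pump partners (9.09%) lowest.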

How the data were processed

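Total RNA of 4 graft veins and 4 control veins was sequenced. The authors deposited raw read counts per gene; per the submitters' processing notes the reads were aligned with HISAT2 2.0.4 to Rnor_6.0, and the sources used here give neither the counter nor the annotation nor the use of strand. Counts were tested with edgeR 4.0.16 (R 4.3.3; filterByExpr with a minimum count of 10, TMM factors, quasi-likelihood test, Benjamini-Hochberg adjustment over all genes tested, threshold 0.05), on all 8 libraries without covariates, after a check on simulated data. DESeq2 1.42.0 and limma 3.58.1 (voom), other scalings and filters, thinned counts and left-out libraries were alternatives. The labels describe pairs of veins from the same rats without saying which libraries match, so the fit treats the 8 libraries as independent, and p-values measure the spread between these samples. The members and lists were chosen with earlier results of these data known. Values in every library are given for the members of each role that rose or fell with the 3 smallest p-values, for pump isoforms that differ in direction, and for members with a library far from the others; of related lists, the gene with the smallest p in each direction and that with the most counts. Lamp1, Lamp2, Gm2a, Acp5, Atp6v0d1 and the transcription factors were added to these. Promoters are from RefSeq, build GRCr8. Levels per coding length, planned, were not computed. Intervals cover counting error only.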

Additional observations from a re-analysis of the deposited data

Results flagged for a closer look

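In groups of 4 libraries, a library was singled out where its gap to the nearest other library was larger, as a share of the group's range, than Dixon's 95% critical value. Of 110 groups (55 genes in 2 groups), 4 met this, and chance alone flags about 1 in 20. Scarb2 was at 166 CPM in control 1, against 256 to 267 CPM in the other controls. Mcoln1 was at 24.6 CPM in control 1, against 15.1 to 16.4 CPM. Atp6v0d2 was at 0.0749 CPM in control 1, which is 1 count, and at 0 in the other controls. Glb1 was at 5.36 CPM in graft 3, against 7.96 to 8.43 CPM in the other grafts. For Scarb2 and Mcoln1, control 1 lay on the side of the grafts.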

How the results depend on the processing

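The number of lysosomal genes that rose was 31 with DESeq2's test, limma voom, DESeq2 size factors, no filter on low counts and counts thinned to the smallest library, 32 with a stricter filter and 33 with upper-quartile factors. With library totals as the only scaling it was 39, and the median log2 fold change of the genes was 0.80 in place of 0.58; that scaling moved the median of all genes from 0.01 to 0.23 and the share of rises among all calls from 49.71% to 67.81%. Leaving out 1 library gave 25 to 33 that rose and 2 to 3 that fell; leaving out controls 3 and 4 gave 21 and 1. Of 33 calls, 27 held in all 8 fits without 1 library. Of 989 values over 18 alternatives, 0 passed in the opposite direction. Deviations of same-numbered controls and grafts correlated at -0.075, 0.18, 0.071 and 0.051, and those of differently numbered ones at -0.248 to 0.154. With 4 libraries in each group, these values cannot tell whether same-numbered libraries came from the same rat. With the replicate number as a block 31 rose and 2 fell. The depth of control 4 limits low genes: 3 counts were 0.56 CPM there.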
